A study of Mus musculus with 42 samples.

Results

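The genes described are 10 members of the epidermal growth factor (EGF) family, 7 ligands and 3 receptors, of 40701 genes in the deposited tables. They were the rows of the count and RPKM tables with the symbols Egf, Tgfa, Areg, Ereg, Hbegf, Btc, Nrg1, Egfr, Erbb2 and Erbb3. All 10 symbols were present, each in 1 row. RNA was sequenced from the renal cortex of mice 12 weeks of age in 42 libraries. The tubule fraction (PT) was RNA of ribosomes pulled down with anti-GFP beads, the method called translating ribosome affinity purification (TRAP), and the comparison fraction, called Total here, carries the label Total kidney. Kidneys came from day 5 and day 10 of unilateral ureteral obstruction (UUO), with contralateral kidneys (CLK) as controls. Each of the 6 combinations of fraction and state held 4 male and 3 female libraries, 7 in all. The labels name no strain and no transgene that drives the GFP tag, give no day for the contralateral kidneys, and do not say whether Total is the RNA left unbound by the beads. No label names the animals, so p-values measure the spread between these libraries.

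EGF family ligands are made as membrane-anchored precursors that are shed by proteases, mainly of the ADAM group, and then act on the same or nearby cells. EGF, TGF-alpha, amphiregulin, epiregulin, HB-EGF and betacellulin bind EGFR, some of them also ERBB4, and neuregulin-1 binds ERBB3 and ERBB4. ERBB2 has no known ligand and serves as the preferred partner of the other receptors, while ERBB3 has a weak kinase and signals mainly through its partners. In the kidney EGF is made mostly in the thick ascending limb and the distal convoluted tubule, and EGFR is found along the tubule.

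Areg and Btc lie side by side on chromosome 5 and had log2 changes of opposite sign after obstruction, as did Egf and Tgfa, so the upstream sequences of these 4 genes are shown. Upstream windows were taken from the RefSeq promoter table (build GRCm38.p6) for 6 of the 10 members, Egf, Tgfa, Areg, Btc, Egfr and Erbb2. Hbegf was left out by rule, as no sequence of its chromosome is printed, and no usable window was found for Ereg, Nrg1 and Erbb3. The 250 bases before the annotated start are printed 5′ to 3′ in the direction of the gene. They were searched for 2 motifs that read the same on both strands, TGACGTCA (the cyclic AMP response element) and TGANTCA (the AP-1 element), which differ in length and do not overlap in these windows, and matches stand in capitals.
Areg, chr5:91139349-91139598, plus strand: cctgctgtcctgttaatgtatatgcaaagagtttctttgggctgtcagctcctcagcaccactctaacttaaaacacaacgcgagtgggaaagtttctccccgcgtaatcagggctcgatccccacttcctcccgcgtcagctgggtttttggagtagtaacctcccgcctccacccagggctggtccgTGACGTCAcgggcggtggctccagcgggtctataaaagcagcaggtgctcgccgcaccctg
Btc, chr5:91402995-91403244, minus strand: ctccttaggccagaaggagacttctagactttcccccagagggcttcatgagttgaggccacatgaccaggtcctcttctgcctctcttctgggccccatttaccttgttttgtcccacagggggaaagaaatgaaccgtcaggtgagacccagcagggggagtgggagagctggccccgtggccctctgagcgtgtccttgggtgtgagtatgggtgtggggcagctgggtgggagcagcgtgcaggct
Egf, chr3:129755323-129755572, minus strand: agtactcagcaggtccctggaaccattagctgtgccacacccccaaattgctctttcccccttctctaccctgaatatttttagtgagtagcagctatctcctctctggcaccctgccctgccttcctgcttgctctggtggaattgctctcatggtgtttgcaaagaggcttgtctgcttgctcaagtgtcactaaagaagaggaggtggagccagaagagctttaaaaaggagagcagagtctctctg
Tgfa, chr6:86194972-86195221, plus strand: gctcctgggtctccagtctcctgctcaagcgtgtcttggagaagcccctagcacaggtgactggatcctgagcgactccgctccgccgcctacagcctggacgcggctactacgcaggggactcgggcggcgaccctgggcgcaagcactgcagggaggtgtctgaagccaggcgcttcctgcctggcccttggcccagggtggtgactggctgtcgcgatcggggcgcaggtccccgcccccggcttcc
The Areg window held 1 match of TGACGTCA, which begins 61 bases before the start, and the windows of the other 5 members held none. Of all 32851 upstream windows of this length in the table, 1.55% held TGACGTCA. TGANTCA was in none of the members' windows and in 6.75% of all windows. These are matches of letters, not measured binding. Egf has a second annotated start with its own window, which held neither motif.

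Total counts ran from 9.31 M to 43.6 M per library (M, mega), with a median of 18.5 M. Levels are given as CPM, which is the count per 1 M of the library total scaled by TMM, a factor for differences in RNA composition. Proximal tubule markers (Slc34a1, Lrp2 and 5 others) summed to 6310 to 7885 CPM in contralateral PT and 3718 to 5511 CPM in contralateral Total, and to a median of 1325 CPM in PT at day 5 and 1407 CPM at day 10. Markers of the loop of Henle and of the distal tubule (9 genes, Umod and Slc12a3 among them) had a median sum of 212 CPM in contralateral PT against 3770 CPM in contralateral Total. The median sum of 9 macrophage markers went from 9.45 CPM in contralateral PT to 43.1 CPM at day 5 and 72.8 CPM at day 10, and in Total from 67.2 to 833 and 1235 CPM. The median sum of 8 fibroblast markers went from 6.01 to 37.9 and 60.6 CPM in PT and from 86.7 to 854 and 990 CPM in Total. In these bulk libraries fewer cells of a type and less RNA per cell cannot be told apart.

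Genes were ranked per gene length within each condition in the deposited RPKM, which are scaled by the plain library total and are not compared between states here. By mean, Egf was the leading ligand of the contralateral Total fraction, and Hbegf led in the other 5 conditions. Egf stood at 52.8 ± 28.5 RPKM (SD, n = 7) in contralateral Total, which was 76.9% of the summed RPKM of the 7 ligands, ahead of Hbegf at 10.8 ± 3.89 RPKM in every one of the 7 libraries. At day 5 in Total, Hbegf (20.7 ± 8.76 RPKM) came before Nrg1 (4.98 ± 0.72) and Egf (4.06 ± 0.657), and exceeded Egf in all 7 libraries. The order of Nrg1 over Egf held in 6 of 7 Total libraries at day 5 and in 3 of 7 at day 10, so these 2 neighbours did not differ beyond their spread at day 10. In PT the first place of Hbegf was held at 7.37 ± 3.81 RPKM in contralateral kidneys, at 7.94 ± 1.91 at day 5 and at 8.81 ± 2.42 at day 10. Nrg1 was at rank 4 in contralateral PT (1.80 ± 0.314 RPKM) and second at day 5 (7.67 ± 0.845), near Hbegf. Areg took the third place by mean in PT at day 5, at 2.36 ± 2.88 RPKM, with its highest library at 8.21 RPKM. By median it was below Btc there (1.01 against 1.28 RPKM). Tgfa had a mean of at most 1.04 RPKM in any condition (1.59 RPKM in its highest library) and Ereg a mean of at most 0.119 RPKM (0.303 in its highest library).

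**Figure D1:**
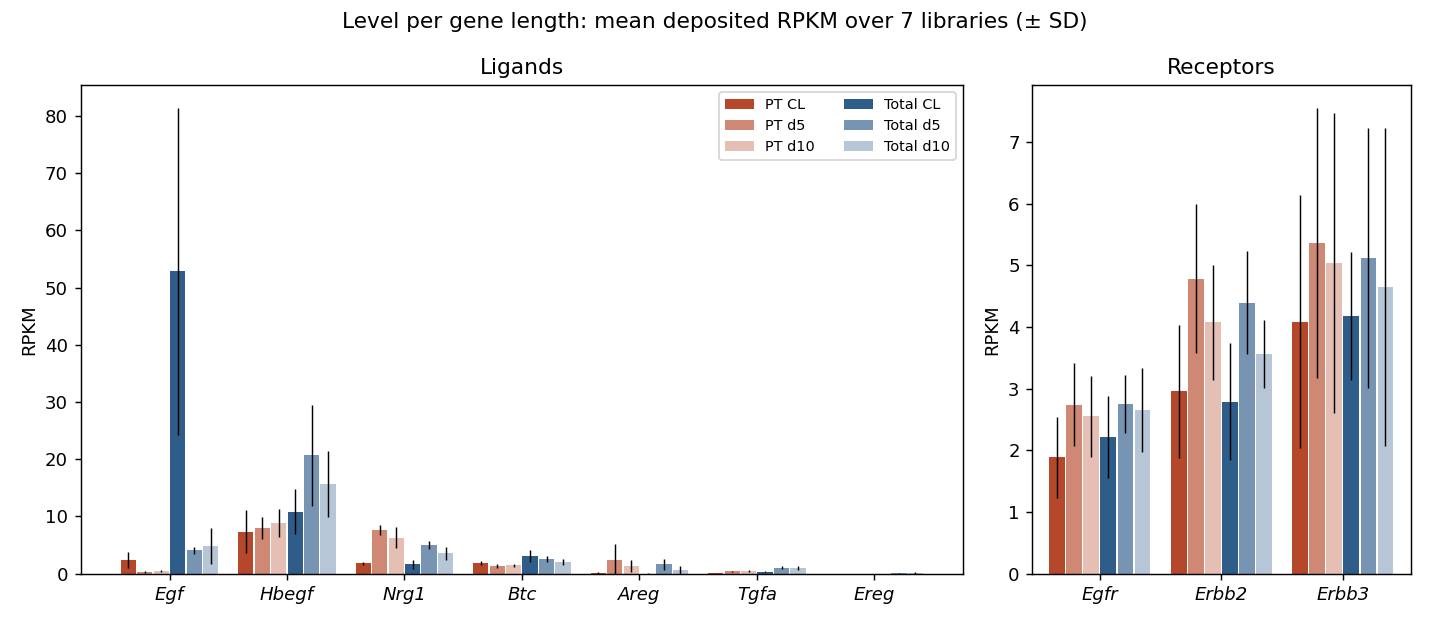
Mean deposited RPKM of the 7 ligands and the 3 receptors in PT (red) and Total (blue), contralateral (CL, darkest), day 5 and day 10 (lightest), with bars starting at 0 and whiskers of 1 SD over 7 libraries (cut at 0 where the SD exceeds the mean). Egf leads the ligands in contralateral Total, at 52.8 RPKM, and by mean the receptors keep the order Erbb3, Erbb2, Egfr in every condition, within wide SDs.

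Egf, the founding ligand of the family, was the only member that fell by at least 2-fold at an adjusted p under 0.05 (edgeR). Btc, described below, fell by less. In contralateral Total its level ran from 121 CPM to 551 CPM, with a median of 224 CPM. At day 5 it ran from 11.8 to 20.0 CPM (median 15.9) and at day 10 from 4.16 to 34.5 CPM (median 16.8). Every obstructed Total library was below every contralateral one. The log2 change was -4.09 (SE 0.41, 17.1-fold lower) at day 5, with an edgeR adjusted p of 1.39e-07, and -3.77 (SE 0.41, 13.6-fold lower) at day 10, adjusted p = 2.71e-07. In PT the contralateral libraries lay between 4.70 and 25.2 CPM (median 17.2), those of day 5 between 0.665 and 2.32 CPM and those of day 10 between 0.883 and 3.47 CPM, again with no overlap. The log2 change in PT was -3.66 (SE 0.39) at day 5, adjusted p = 1.14e-07, and -2.63 (SE 0.36) at day 10, adjusted p = 3.03e-06. The Egf change from day 5 to day 10 in PT, 1.03 on the log2 scale (95% interval 0.25 to 1.81), had an adjusted p of 0.273.

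Egf was far lower in PT than in Total in all 3 states. The log2 difference of PT against Total was -4.19 (SE 0.41, adjusted p = 1.34e-10) in contralateral kidneys, -3.79 at day 5 and -3.03 at day 10, with no overlap of PT and Total libraries in any state. Over the same contralateral libraries the 9 loop and distal markers were all lower in PT, from -1.08 (Wnk4) to -4.87 (Slc12a3), and Umod, which encodes uromodulin of the thick ascending limb, differed by -4.37. At day 5 and day 10, 7 of the 9 were called lower in PT, and Wnk4 stood at 0.09 and 0.49 (adjusted p = 0.657 and 0.00738, edgeR), Pvalb at day 5 at -0.79 (adjusted p = 0.623) and Trpm6 at day 10 at -0.41 (adjusted p = 0.137). After obstruction these markers did not all move as Egf did. In Total 5 of the 9 fell at day 5 and 6 at day 10, and none rose, where 32.5% and 34.6% of all genes were called. Umod stood at -0.25 and -0.28 (adjusted p = 0.198 and 0.143), and Cldn16, a claudin of the thick ascending limb, at 0.18 and 0.52 (adjusted p = 0.332 and 0.00506), both under 2-fold. In PT 4 fell and 1 rose at day 5 and 2 fell and 1 rose at day 10, where 30.6% and 31.7% of all genes were called. The marker that rose there was Trpm6, a magnesium channel of the distal convoluted tubule, by 1.96 and 3.07, and Umod stood at 0.07 and 0.58 (adjusted p = 0.814 and 0.027). The median of the marker sum was 3770, 999 and 913 CPM in contralateral, day 5 and day 10 Total and 212, 95.1 and 113 CPM in the same states of PT. The part of these segments' RNA in the Egf values of PT was not tested. Antisense genes annotated in GENCODE M21 overlap Egf (Gm42697, Gm42650 and 6330410L21Rik), and as no strand setting is given, their reads cannot be told apart from those of Egf. The same limit holds for the opposite-strand genes over Tgfa (Gm43917), Ereg (Gm19610) and Nrg1 (Gm26578 and Gm22140).

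**Figure D2:**
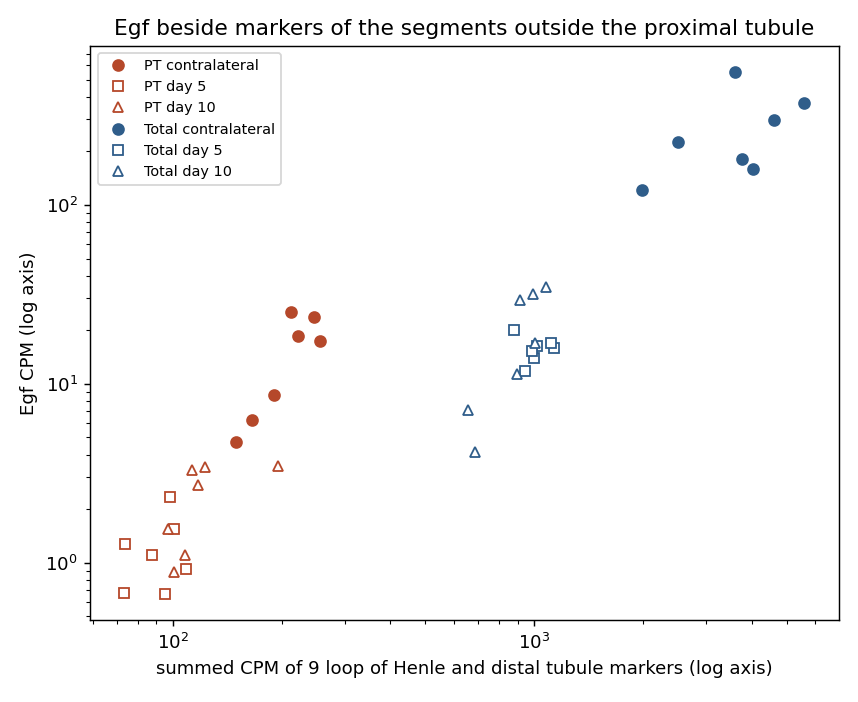
Egf (CPM, log axis) against the summed CPM of 9 markers of the loop of Henle and the distal tubule (log axis), 1 point per library, PT in red and Total in blue, filled circles for contralateral kidneys, open squares for day 5 and open triangles for day 10. Contralateral Total libraries lie at the top right, at 121 to 551 CPM of Egf, and obstructed PT libraries at the bottom left, at 0.665 to 3.47 CPM.

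Areg, which encodes amphiregulin, was almost absent from contralateral kidneys and rose in both fractions. The 7 contralateral PT libraries held 10 counts in all, 8 of them in male replicate 2 (0.591 CPM), and 4 libraries held none. At day 5 the PT libraries held 398 counts, at 9.76, 3.65, 3.42 and 1.21 CPM in the 4 males and at 0.549, 0.154 and 0.444 CPM in the 3 females. At day 10 the PT males stood at 3.11, 3.16, 2.03 and 2.68 CPM and the PT females at 0.239, 0.352 and 0.0906 CPM. All obstructed PT males were above all obstructed PT females of the same day, and the females overlapped the contralateral male replicate 2. The ratio of pooled PT levels was 35.5 (counting interval 19.1 to 74.6) at day 5 and 20.6 (11 to 43.4) at day 10. Single libraries set its size, by a check chosen after the values were seen. Without contralateral male replicate 2, which leaves 2 contralateral counts, the ratio was 156 (43 to 1294) and 90.7 (24.9 to 752), and at day 5 it was 20.4 (10.8 to 43.2) without PT male replicate 1. Intervals of pooled counts cover counting error only. The edgeR log2 change, which depends on the prior count of such a scarce gene, was 4.35 (SE 0.79, adjusted p = 0.0001) at day 5 and 3.57 (SE 0.84, adjusted p = 0.00111) at day 10. Areg passed the filter on low counts through the obstructed groups only, so these p-values are no separate support for its rise.

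In Total, Areg counted 5 in all 7 contralateral libraries, with 0 in all females. At day 5 it stood at 2.78, 2.08, 2.32 and 0.559 CPM in males and 0.662, 1.14 and 1.17 CPM in females, above every contralateral library. At day 10 males stood at 0.392, 1.63, 1.39 and 1.06 CPM and females at 0.181, 0.136 and 0.053 CPM, so that females of day 10 overlapped the highest contralateral male at 0.191 CPM. The pooled ratio to contralateral was 35.7 (counting interval 15.1 to 111) at day 5 and 17.8 (7.38 to 55.9) at day 10. The edgeR test of the change averaged over the sexes, which is not a test of these ratios, gave an adjusted p of 6.58e-07 and 0.00109. In Total too Areg passed the filter through the obstructed groups only. Without contralateral male replicate 2, which leaves 1 contralateral count, the ratios were 146 (25.9 to 5784) and 72.6 (12.7 to 2896). Day 10 was lower than day 5 by a log2 difference of -1.88 (SE 0.50), with an adjusted p of 0.101 in edgeR and 0.0263 in DESeq2 (log2 difference -1.91).

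Ereg, the gene of epiregulin and the neighbour of Areg on chromosome 5, was counted in Total of obstructed kidneys and hardly elsewhere. It had 0 counts in the 7 contralateral PT libraries and the 7 PT libraries of day 5, and 1 count at day 10 in PT. With 3 counts as the limit that 0 allows, its pooled level was under 0.0266 CPM in contralateral PT and under 0.0237 CPM in PT at day 5. In Total it had 0 counts in contralateral kidneys, 35 counts at day 5 and 52 at day 10. At day 5 Total levels were 0.119, 0, 0.422 and 0.210 CPM in males and 0.458, 0.311 and 0.0899 CPM in females. At day 10 they were 0.147, 0.0604, 0.310 and 0.197 CPM in males and 0.361, 1.15 and 0.741 CPM in females. The Total level was at least 9.17-fold higher at day 5 and at least 15.0-fold higher at day 10 than in contralateral kidneys. Both bounds were set against a floor of 3 counts over the group. The edgeR adjusted p of the change was 0.000479 at day 5 and 8.55e-05 at day 10. Ereg passed the filter on low counts through the obstructed groups only, so these p-values are no separate support for its rise. Against PT the Ereg level was at least 10.1-fold higher in Total at day 5, and 58.2 times the PT level (counting interval 9.99 to 2342) at day 10. Macrophage and fibroblast markers were also far higher in obstructed Total than in obstructed PT (833 against 43.1 CPM and 854 against 37.9 CPM at day 5), and their part in the Ereg values was not tested. Reads of the antisense gene Gm19610, which overlaps Ereg, cannot be told apart from those of Ereg without a strand setting. Epgn, which lies next to Ereg on the other side and encodes epigen, had at most 8 summed counts in any condition.

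Tgfa, the gene of TGF-alpha, rose in both fractions from a low level. In contralateral PT it stood at 0.450, 0.222, 0.333 and 0.270 CPM in males and 0.335, 0.396 and 0.253 CPM in females, 37 counts in all. At day 5 the PT libraries ran from 1.16 to 2.00 CPM (median 1.59) and at day 10 from 0.815 to 2.73 CPM (median 1.91). No obstructed PT library reached down to the contralateral range. The PT log2 change was 2.19 (SE 0.29, 4.56-fold) at day 5, adjusted p = 2.03e-06, and 2.29 (SE 0.29, 4.88-fold) at day 10, adjusted p = 9.95e-07. In Total the contralateral libraries ran from 0.498 to 2.42 CPM (median 1.66), those of day 5 from 2.90 to 4.57 CPM and those of day 10 from 2.20 to 5.13 CPM. The groups did not overlap at day 5 and did at day 10. The Total log2 change was 1.01 (SE 0.27, adjusted p = 0.00233) at day 5 and 1.06 (SE 0.27, adjusted p = 0.00141) at day 10, both close to the 2-fold limit of a call. At day 5 it was below that limit without contralateral male replicate 3 (0.88), day 5 male replicate 1 (0.96), contralateral female replicate 3 (0.95) or day 5 female replicate 3 (0.98). At day 10 it was below it without contralateral male replicate 3 (0.93), day 10 male replicates 2 (0.96) or 3 (0.97), or day 10 female replicate 1 (0.999).

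Tgfa was lower in PT than in Total in each state, most so in contralateral kidneys. The log2 difference was -2.33 (SE 0.30, adjusted p = 4.44e-08) in contralateral kidneys, -1.18 (SE 0.26, adjusted p = 0.000207) at day 5 and -1.07 (SE 0.26, adjusted p = 0.000497) at day 10. The difference between the PT and the Total response was 1.16 (SE 0.40, adjusted p = 0.0878) at day 5 and 1.26 (SE 0.39, adjusted p = 0.0375) at day 10. With only the compared groups in the fit and the replicate number as a block, these were 1.22 (adjusted p = 0.0827) at day 10 and 1.22 (adjusted p = 0.049) at day 5. The day 10 difference lost its call with RLE factors, with library size only, with no filter, in DESeq2 and in limma-voom (adjusted p from 0.051 to 0.149) and in 12 of 42 cases of 1 library left out, and on log2(RPKM + 1) it had the other sign, -0.12. The PT against Total difference at day 10 was below 2-fold without Total male replicate 2 (-0.91), female replicate 1 (-0.94) or female replicate 2 (-0.99), or PT male replicate 4 (-0.97) or female replicate 3 (-0.89), all of day 10.

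Nrg1, which encodes neuregulin-1, the ligand of Erbb3 and Erbb4, rose in PT at both days and in Total at day 5. In contralateral PT it stood at 4.15, 5.17, 4.33 and 5.13 CPM in males and 6.02, 5.87 and 4.87 CPM in females. At day 5 the PT libraries ran from 13.4 to 18.3 CPM (median 15.8) and at day 10 from 7.74 to 20.4 CPM (median 14.5), with no overlap with the contralateral ones. The PT log2 change was 1.61 (SE 0.19, adjusted p = 3.61e-07) at day 5 and 1.4 (SE 0.19, adjusted p = 1.96e-06) at day 10. Counts assigned to Lars2, a mitochondrial leucyl-tRNA synthetase gene, varied from 2621 to 43629 CPM over PT of day 10, and in the PT libraries under 10000 CPM of Lars2 (3, 4 and 3 of contralateral, day 5 and day 10, a choice made after the data were seen) the day 10 change was 0.89, below 2-fold. In Total the contralateral libraries ran from 2.63 to 7.62 CPM (median 3.11), those of day 5 from 6.02 to 10.4 CPM (median 8.95) and those of day 10 from 4.22 to 9.71 CPM (median 5.05), and 1 contralateral library, male replicate 2, reached into both obstructed ranges. The Total log2 change was 1.19 (SE 0.23, adjusted p = 0.00011) at day 5 and 0.79 (SE 0.23, adjusted p = 0.00485) at day 10, the latter under 2-fold and 1.02 without that library. Nrg1 was the only member called higher in PT than in Total, with a log2 difference of 0.47 (adjusted p = 0.0669) in contralateral kidneys, 0.86 (adjusted p = 0.00042) at day 5 and 1.10 (adjusted p = 1.65e-05) at day 10. The last alone passed the 2-fold limit, but was 0.97 without day 10 male Total replicate 3 and 0.81 with library size as the only scaling. At day 5 it passed the limit without Total male replicate 4, Total female replicate 2, PT male replicate 2 or PT female replicate 1 of that day (1.01 to 1.03).

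**Figure D3:**
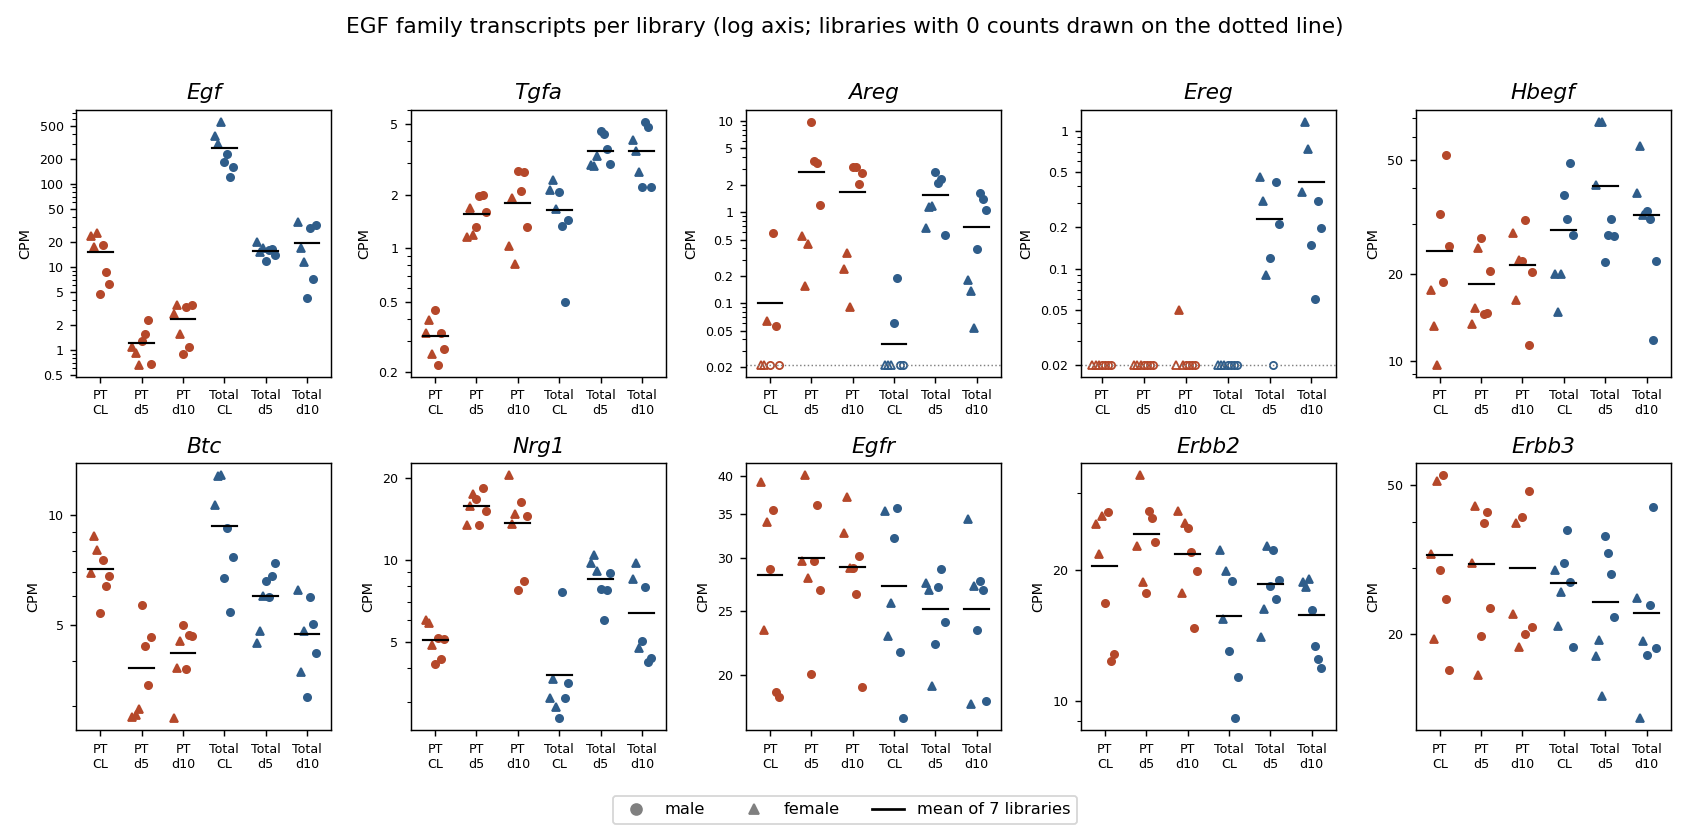
CPM of the 10 members in each of the 42 libraries (log axes, each panel with its own range), PT in red and Total in blue, contralateral (CL), day 5 (d5) and day 10 (d10), males as circles, females as triangles, black lines the mean of 7 libraries where it is above the dotted line. Open symbols on a dotted line are libraries with 0 counts. Egf fell from 121 to 551 CPM in contralateral Total to at most 34.5 CPM in obstructed ones, while the 3 receptors overlapped across all conditions.

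Btc, the gene of betacellulin, was lower in obstructed kidneys by close to 2-fold and did not meet the 2-fold limit in any comparison with contralateral kidneys. In contralateral PT it ran from 5.4 to 8.78 CPM (median 6.94), at day 5 from 2.81 to 5.68 CPM (median 3.42) and at day 10 from 2.79 to 5.01 CPM (median 4.53). The groups overlapped at day 5 and did not at day 10. The PT log2 change was -0.998 (SE 0.16, 95% interval -1.34 to -0.66, adjusted p = 2.75e-05) at day 5 and -0.84 (SE 0.16, adjusted p = 0.000154) at day 10. In Total it was -0.71 (SE 0.17, adjusted p = 0.000885) at day 5 and -0.98 (SE 0.17, adjusted p = 2.69e-05) at day 10. With library size as the only scaling these 4 values were -0.53, -0.39, -0.28 and -0.61, of the same sign. Leaving out 1 library took the PT day 5 value past 2-fold in 5 of 21 cases (to -1.06) and the Total day 10 value in 6 (to -1.08). Contralateral Total females stood at 10.6, 12.8 and 12.8 CPM and males at 6.72, 9.19, 5.42 and 7.70 CPM, and by day 5 the females were at 4.48, 4.82 and 6.02 CPM and the males at 5.97 to 7.41 CPM. All contralateral females were above all contralateral males, and at day 5 the sexes overlapped. The sex difference of the day 5 response in Total was -1.12 (SE 0.34, adjusted p = 0.137 in edgeR and 0.036 in DESeq2).

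Hbegf, the gene of heparin-binding EGF-like growth factor, was not called in either fraction against contralateral kidneys when the sexes were averaged, and its response in Total differed by sex. In PT it ran from 9.74 to 52.1 CPM (median 18.8) in contralateral kidneys, from 13.5 to 26.8 CPM at day 5 and from 11.4 to 30.8 CPM at day 10, and all 3 ranges overlapped. The PT log2 change was -0.18 (95% interval -0.72 to 0.36) at day 5 and 0.03 (-0.51 to 0.57) at day 10, and at day 5 it turned to 0.28 with library size as the only scaling. The Total change was 0.60 (SE 0.20, adjusted p = 0.0141) at day 5, under 2-fold, and 0.32 (SE 0.20, adjusted p = 0.174) at day 10. With library size as the only scaling the day 5 value was 1.04, past the limit. Hbegf was lower in PT than in Total at day 5 by a log2 difference of -1.10 (SE 0.24, adjusted p = 0.000164). Leaving out 1 library at a time moved that value between -1.26 and -0.89 and below 2-fold in 18 of 42 cases (9 libraries of day 5 and 9 of day 10), the adjusted p reaching 0.00485 at most.

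In contralateral Total, Hbegf stood at 37.7, 31.2, 48.7 and 27.4 CPM in males and at 20.0, 14.9 and 20.0 CPM in females. At day 5 males stood at 22.1, 27.3, 31.2 and 27.2 CPM and females at 40.7, 67.6 and 67.5 CPM. Males were above females without overlap in contralateral kidneys and below them without overlap at day 5. The change was -0.47 (SE 0.26) in males and 1.66 (SE 0.31) in females on the log2 scale, and the difference of the 2, 2.12 (SE 0.40), had an adjusted p of 0.011. It was the only member called for a sex difference of the response, where 0.59% of all tested genes were called. At day 10 males stood at 33.3, 31.2, 11.8 and 22.3 CPM and females at 38.3, 55.6 and 32.2 CPM, and the sex difference of the response was 1.78 (SE 0.40, adjusted p = 0.0762 in edgeR and 0.0107 in DESeq2), with a count of 0 members called in edgeR, where 0.185% of all genes were called, and 1 member at an unadjusted p under 0.05. In PT the same difference was 1.18 (SE 0.52, adjusted p = 0.529) at day 5 and 1.31 (SE 0.52, adjusted p = 0.602) at day 10. Contralateral PT males stood at 32.4, 18.8, 52.1 and 25.2 CPM and females at 17.7, 13.3 and 9.74 CPM, a female against male log2 difference of -1.27 (SE 0.38, adjusted p = 0.0605 in edgeR and 0.0223 in DESeq2). In contralateral Total this difference was -0.99 (SE 0.29, adjusted p = 0.0594).

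**Figure D4:**
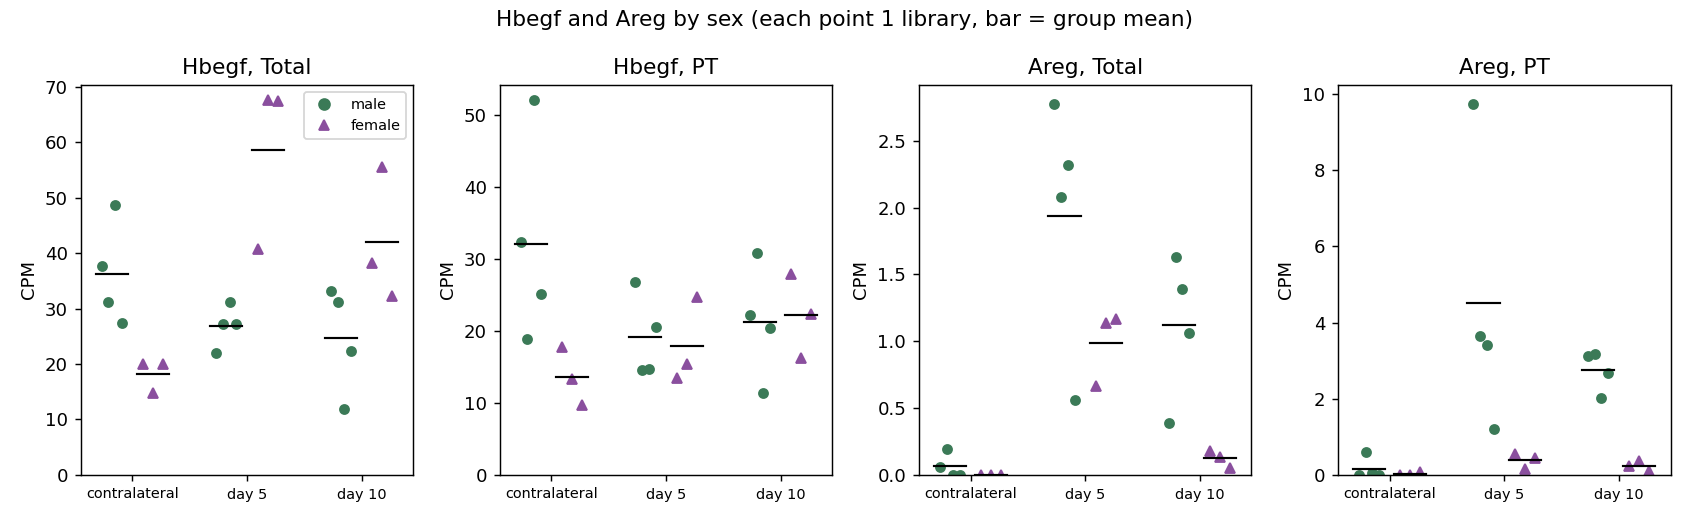
Hbegf and Areg (CPM, linear axes from 0) in Total and PT by state, males as green circles and females as purple triangles, 1 point per library, black bars the group means. Hbegf in Total is lower in females than in males in contralateral kidneys (14.9 to 20.0 against 27.4 to 48.7 CPM) and higher at day 5, and Areg in obstructed PT is higher in all males than in all females.

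The sexes were also compared within each day of obstruction, a comparison chosen after the Areg values had been seen. In PT, Areg was lower in females than in males by a log2 difference of -3.50 (SE 0.81, adjusted p = 0.04) at day 5 and -3.61 (SE 0.85, adjusted p = 0.0218) at day 10. It was the single member called, where 0.851% and 2.22% of all tested genes were called. Areg passed the filter on low counts through the obstructed groups only, and PT females held 17 counts at day 5 and 12 at day 10. The Areg p-values between the sexes, in Total too, are therefore no separate support for a sex difference. At day 5 the adjusted p passed 0.05 when any of 7 libraries was left out (up to 0.241), among them each of the 3 PT females and male replicates 1 to 3 of that day and contralateral PT female replicate 3, with values between -3.86 and -2.79. At day 10 it did so without female replicate 1 (-3.65, adjusted p = 0.083) or female replicate 3 (-3.19, adjusted p = 0.155). In Total the difference was -0.96 (SE 0.60, adjusted p = 0.406) at day 5 and -3.20 (SE 0.81, adjusted p = 0.0496) at day 10, where 1.13% of all genes were called, and the call was lost in 16 of 21 cases of 1 library left out. At day 5 in Total edgeR called 0 members, where 0.429% of all genes were called, 2 had an unadjusted p under 0.05, and limma-voom called 0. DESeq2 called 1, Hbegf, which was higher in females by 1.14 (SE 0.28, adjusted p = 0.0607 in edgeR and 0.0104 in DESeq2). The sex difference of the Areg response itself could not be judged, as contralateral females held 1 count in PT and 0 in Total.

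The receptor transcripts showed no change past the threshold in either fraction. Egfr, which encodes the shared receptor of 6 of the ligands, ran from 18.5 to 39.1 CPM in contralateral PT, from 20.0 to 40.0 CPM at day 5 and from 19.2 to 37.1 CPM at day 10. Its log2 change was 0.08 (95% interval -0.28 to 0.44) at day 5 and 0.00 (-0.36 to 0.36) at day 10 in PT, and -0.16 (-0.51 to 0.20) and -0.12 (-0.47 to 0.24) in Total. Erbb2, the partner receptor, ran from 12.4 to 27.1 CPM in contralateral PT and from 17.7 to 32.9 CPM at day 5, with a log2 change of 0.22 (-0.17 to 0.61) at day 5 and 0.06 (-0.33 to 0.45) at day 10. In Total the Erbb2 change was 0.18 (-0.13 to 0.50) at day 5 and 0.00 (-0.32 to 0.32) at day 10. Erbb3, the receptor of neuregulins, had the widest spread of the 3 in PT, from 16.0 to 53.1 CPM in contralateral kidneys and from 15.6 to 44.1 CPM at day 5. Its log2 change was -0.10 (-0.73 to 0.53) and -0.19 (-0.82 to 0.45) in PT and -0.30 (-0.73 to 0.13) and -0.31 (-0.74 to 0.12) in Total at day 5 and day 10. In each of these 12 receptor comparisons the interval left out a 2-fold change.

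Scaling sets the sign of some of these small receptor values. With library size as the only scaling the median of all genes moved by 0.36 to 0.47 on the log2 scale, and Egfr in Total turned to 0.29 at day 5 and 0.25 at day 10. Erbb3 turned to 0.38 and 0.27 in PT and to 0.16 and 0.08 in Total. In that scaling Erbb2 in PT at day 5 was 0.69 (adjusted p = 0.0119), still under 2-fold. Between fractions the 3 receptors differed by at most 0.46 (Erbb2 at day 10, adjusted p = 0.0221). Per length, Erbb3 exceeded Egfr in RPKM in all 42 libraries, with means of 4.09 ± 2.05 against 1.88 ± 0.653 RPKM in contralateral PT, and Erbb2 (2.96 ± 1.07 RPKM) lay between them by mean in every condition. The order of Erbb3 over Erbb2 in RPKM held in 6 of 7 libraries in contralateral PT and in 3 of 7 at day 10. The order of Erbb3 over Egfr depends on the lengths used for RPKM, 6.02 kilobases for Erbb3 and 11.3 for Egfr. In CPM, Egfr was above Erbb3 by mean in Total at day 5 (25.1 against 24.5) and day 10 (25.1 against 22.8). By mean CPM it was below Erbb3 in the other conditions, as in contralateral PT (28.3 against 32.5). Erbb4, the remaining receptor of the family, stood at 3.49 to 10.7 CPM in contralateral Total and was scarcer in PT, at 0.0555 to 0.920 CPM in contralateral kidneys and 0.0966 to 2.20 CPM at day 5, overlapping ranges with a log2 change of 1.62 (SE 0.56, adjusted p = 0.0188). Egfros overlaps Egfr and Mien1 overlaps Erbb2 on the opposite strand, and their reads cannot be told apart from the receptors' without a strand setting.

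Of the 10 members, 5 were called in at least 1 comparison with contralateral kidneys, 1 of them lower and 4 higher. In PT, 9 of the 10 members passed the filter on low counts, and Ereg did not. At day 5, 4 of them were called (3 higher, 1 lower) at an adjusted p under 0.05 and at least 2-fold, where 30.6% of 14932 tested genes were called (59.6% of these higher, 83.2% with library size as the only scaling), and their median log2 change was 0.08 against 0.05 for all genes. At day 10 the same 4, Egf, Tgfa, Areg and Nrg1, were called, where 31.7% of genes were (62.2% higher, 82.9% with library size only), and the median was 0.03 against 0.05. In Total, where all 10 passed, 5 were called at day 5 (Egf lower; Tgfa, Areg, Ereg and Nrg1 higher), where 32.5% of 16782 genes were called (59.1% higher, 80.4% with library size only). At day 10 it was 4 (without Nrg1), where 34.6% were called (60.3% higher, 76% with library size only). Areg and Ereg passed the filter through the obstructed groups only. Both days share the contralateral libraries, so their values are not independent. Between day 5 and day 10 edgeR called 0 members in PT, where 0.442% of all genes were called, with 1 at an unadjusted p under 0.05 and 0 by DESeq2 and limma-voom. In Total it called 0, where 0.393% were, with 1 at an unadjusted p under 0.05, 1 by DESeq2 (Areg) and 0 by limma-voom.

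**Figure D5:**
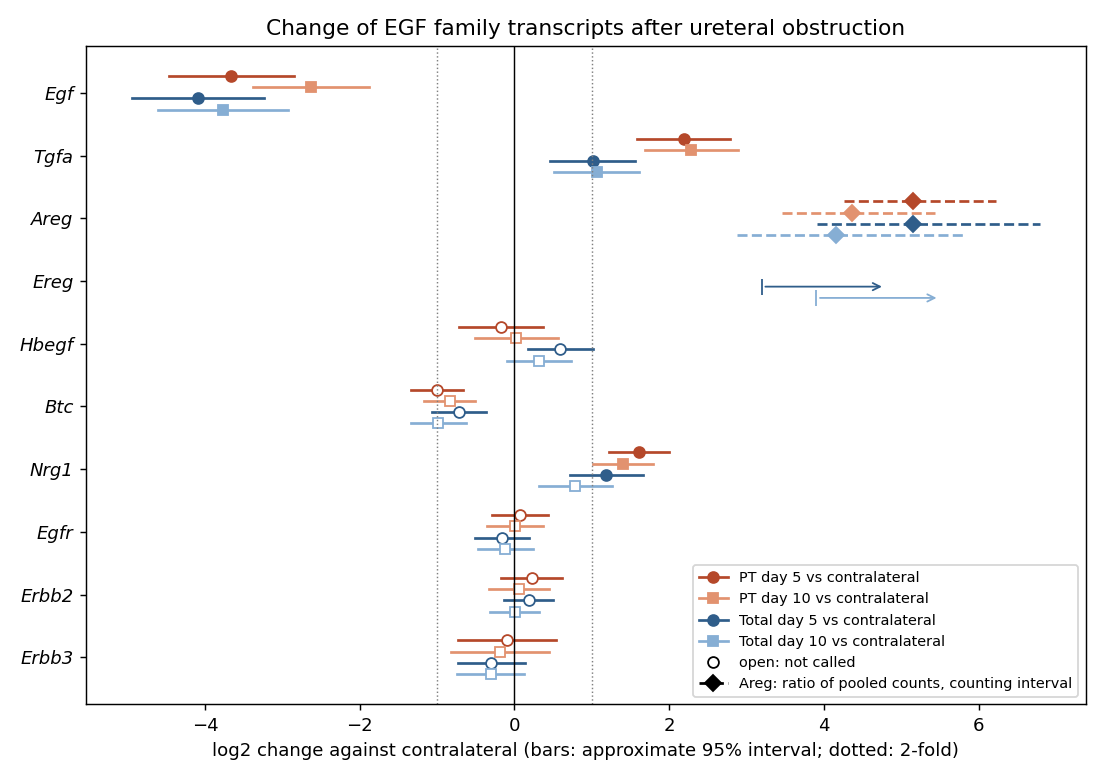
Log2 change against contralateral kidneys for the 10 members in PT (reds) and Total (blues) at day 5 (circles) and day 10 (squares), with the approximate 95% interval; filled symbols were called, and dotted lines mark 2-fold. Areg is drawn as the ratio of pooled counts (diamonds) with its counting interval and Ereg in Total as a lower bound (arrow) of 9.17-fold and 15.0-fold. Egf lies between -4.09 and -2.63, Tgfa and Nrg1 lie above 0 and the receptors around 0.

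Between the fractions, PT against Total, 2 members were called in contralateral kidneys (Egf and Tgfa, both lower in PT), where 24.1% of 17110 genes were called. At day 5 there were 4 (Egf, Tgfa, Ereg and Hbegf, all lower in PT), where 27.8% of genes were called, and at day 10 there were 4 (Egf, Tgfa and Ereg lower, Nrg1 higher), where 30.1% were (23.5% of these higher in PT, 10.6% with library size only). Ereg, with 0 counts in PT at day 5 and 1 at day 10, passed the filter through obstructed Total only. Its calls between the fractions are therefore no separate support for a difference. Areg was not called between the fractions at day 5 or day 10, with edgeR log2 differences of -0.05 (SE 0.45) and 1.11 (SE 0.63). Its pooled PT level was 2.02 times that of Total at day 5 (counting interval 1.71 to 2.39), but 1.16 times (0.95 to 1.41) without PT male replicate 1 of that day, which held 208 of the 398 counts. The pooled ratios of the sexes lay on opposite sides of 1 at day 5, and this difference was not tested. In males, with PT male replicate 1 included, PT was 2.43 times Total (2.03 to 2.92). In females PT was 2.42-fold lower (1.37 to 4.49, 17 against 48 counts). These intervals cover counting error only, not the spread between libraries. At day 10 the pooled PT level was 2.35 times that of Total (1.87 to 2.98), between 2.01 and 2.91 with any 1 library left out. It was 2.48 times Total in males (1.95 to 3.16) and 1.97 times in females (0.645 to 7.13). For the difference of the PT and Total responses edgeR called 0 members at day 5 (2 with an unadjusted p under 0.05, and 0 by DESeq2 and limma-voom), where 4.27% of genes were called, and 1 at day 10 (Tgfa, above; 0 by DESeq2 and limma-voom), where 5.76% were.

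For the sexes, edgeR called 0 members between contralateral females and males in PT, where 4.13% of genes were called, and 2 had an unadjusted p under 0.05. DESeq2 called 1 (Hbegf) and limma-voom 1 (Egf). Egf was at 23.7, 17.2 and 25.2 CPM in contralateral PT females and 4.70, 18.5, 8.60 and 6.27 CPM in males, a log2 difference of 1.21 (SE 0.47, adjusted p = 0.178), and at 372, 297 and 551 CPM against 181, 224, 121 and 158 CPM in contralateral Total, 1.25 (SE 0.50, adjusted p = 0.218). All Total females were above all Total males. In contralateral Total edgeR called 0 members, where 2.76% of genes were called, 4 had an unadjusted p under 0.05, and DESeq2 and limma-voom called 0. For the sex difference of the response in PT edgeR, DESeq2 and limma-voom each called 0 members at day 5, where 0.502% of genes were called (3 members at an unadjusted p under 0.05), and 0 at day 10, where 0.208% were (1 member).

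Among the genes that shed the ligands, Rhbdl2, Rhbdf2 and Adam12 rose and Timp3, an inhibitor of ADAM proteases, fell in both fractions on both days. Of 9 such genes 4 rose and 1 fell in PT at day 5, and 3 rose and 1 fell in the other 3 comparisons, where 30.6% (PT day 5), 31.7% (PT day 10), 32.5% (Total day 5) and 34.6% (Total day 10) of all genes were called. The ADAM proteases did not move together. At day 5 Adam17 stood at -0.10 in PT and 0.26 in Total, and Adam9 at -0.50 and -0.86. Adam10 stood at 1.14 and 0.83 and Adam15 at 0.26 and 0.66, and only Adam10 in PT was called among these. Rhbdl2, a rhomboid protease of the cell surface, changed by 4.26 (SE 0.45) in PT and 1.93 (SE 0.43) in Total at day 5, and the difference of the 2 responses was 2.30 (SE 0.68, adjusted p = 0.0368). Rhbdf2, which carries ADAM17 to the surface, changed by 1.88 (SE 0.22) in PT and 1.71 (SE 0.15) in Total at day 5. Adam12 changed by 3.50 (SE 0.56) and 2.72 (SE 0.35), and Timp3 by -1.65 (SE 0.24) and -1.81 (SE 0.23). The log2 difference of PT against Total at day 5 was -3.41 for Adam12, -1.16 for Rhbdl2, 0.39 for Rhbdf2 and 0.71 for Timp3. For the fibroblast marker Col1a1 it was -4.56. The part of RNA from other cell types in the PT values of these genes was not tested. The median of the list was 0.26 in PT and 0.66 in Total at day 5, against 0.05 and 0.04 for all genes.

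Downstream of the receptors, most adaptors and kinases of the ERK cascade changed by less than 2-fold, and most of the immediate targets changed by more. Of 15 adaptor and cascade genes 1, Nras, rose in PT, by 1.22 (SE 0.17) at day 5 and 1.16 (SE 0.17) at day 10, and none was called in Total. Smaller changes went both ways. In Total at day 5, Shc1 stood at 0.79 (edgeR adjusted p = 5.02e-07) and Map2k2 at -0.91 (edgeR adjusted p = 6.22e-05). Of 9 transcriptional targets of ERK 7 rose and 2 fell in PT on both days, and 4 rose and 2 fell in Total. The share of all genes called was 30.6% and 31.7% in PT and 32.5% and 34.6% in Total at day 5 and day 10. Egr1 changed by 6.41 (SE 0.42) in PT and 3.87 (SE 0.18) in Total at day 5, and Fos by 4.38 (SE 0.35) in PT at day 5. Ccnd1, which encodes cyclin D1, fell by 2.57 in PT and 2.39 in Total at day 5, and Etv5 fell by 2.43 and 1.5. The median change of this list in PT at day 5 was 3.58, against 0.05 for all genes. Many signals act on these targets, and nothing here ties them to the EGF family.

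Of 16 feedback inhibitors 4 rose and 1 fell in PT at day 5, and 4 rose and 2 fell at day 10, which is near the 30.6% and 31.7% of all genes called there and is no result about the list. Spred3 (3.01, SE 0.54), Dusp5 (1.63, SE 0.37) and Spry1 (1.4, SE 0.23) rose in PT at day 5, all of them inhibitors of the ERK cascade. PT against Total at day 5, Spred3 stood at -2.11, Spry1 at -1.83 and Dusp5 at 0.29. The part of RNA from other cell types in their PT values was not tested. Errfi1, whose product binds and blocks the EGFR kinase, fell by 1.5 in PT and 1.37 in Total at day 5. Lrig1, which promotes breakdown of the receptors, fell by 1.01 in PT at day 10. The list medians were -0.10 in PT and 0.20 in Total at day 5. Among the other 5 family genes (Epgn, Nrg2, Nrg3, Nrg4 and Erbb4), 2 could be tested in PT, and Erbb4 at day 5 was the only one called.

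The genes whose log2 CPM followed each moving member most closely over the 42 libraries, by Pearson's r among up to 12090 genes whose average reached 5 CPM in any of the groups, differed from member to member. For Egf they were Klk1 (r = 0.96), Calb1 (0.96) and Wfdc15b (0.95), for Tgfa AI607873, Txnip and Slc38a1 (0.91 each), and for Nrg1 Triobp (0.88), Med11 (0.87) and Tmem176b (0.87). For Areg they were Xirp2 (0.85), Kcnip4 (0.83) and Slc20a1 (0.81), and for Ereg Rgs16 (0.86), Tnfsf8 (0.85) and Ebi3 (0.84). The 42 libraries share the contrast between states and fractions, so these values describe a shared pattern and carry no test.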

How the data were processed

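RNA was sequenced from 42 libraries of 12 groups of sex, state and fraction. Reads were processed by the authors with STAR 2.0.4b, Subread and featureCounts 1.4.5, per the submitters' processing notes, and genome build, annotation and strand setting are not given in the sources used here. The deposited tables hold raw counts per gene and RPKM. The RPKM followed from the counts, the plain library total and a fixed length for each of 28069 genes, within a relative deviation of 0.000497. From the counts, genes were filtered with filterByExpr by group and tested with the robust quasi-likelihood test of edgeR 4.0.16 (R 4.3.3) with TMM factors, 1 mean per group and equal weight of the sexes, in PT, in Total and, across fractions, in all libraries, with Benjamini-Hochberg adjustment over all tested genes. Calls needed an adjusted p under 0.05 and at least 2-fold. SEs are the log2 change over the root of F. The deposited RPKM served to compare genes per length within a condition and in the alternatives on log2(RPKM). There were 21 comparisons, 4 of them (sexes within day 5 and day 10) chosen after the values were seen. Members and lists were chosen with earlier results of these data known. All members are named, and up to 3 called genes per list, direction and comparison with the largest change. Alternatives used DESeq2 1.42.0, limma 3.58.1 and other filters, scalings and library sets. Replicate numbers paired the libraries (every pair's correlation over 0.1, a pattern in the data and not in the labels) for day 10 against contralateral in Total (0.153 to 0.357) and PT against Total in contralateral (0.288 to 0.439) and day 10 kidneys (0.193 to 0.677). The scripts were tested on simulated data.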

Additional observations from a re-analysis of the deposited data

Results flagged for a closer look

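Areg in contralateral PT male replicate 2 stood at 0.591 CPM (8 counts), while the other 3 males of that group stood at 0 to 0.0555 CPM, which is a gap larger than Dixon's 95% limit for 4 values. It was the only such case among 56 groups of 4 tested, where chance gives about 1 in 20.

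The Tgfa responses at day 10 differed between PT and Total by 1.26 on the log2 scale, with an edgeR adjusted p of 0.0375. The call was lost with only the compared groups in the fit (adjusted p = 0.0953; 0.0827 with the replicate number as a block), with RLE factors (0.0828), library size only (0.051) or no filter (0.149), and in DESeq2 (0.0802) and limma-voom (0.11). Tgfa changed in both fractions, from 0.323 to 1.80 CPM in PT and from 1.65 to 3.53 CPM in Total by means.

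Hbegf had a response at day 5 in Total that differed between females and males by 2.12 on the log2 scale, adjusted p = 0.011. Means went from 18.3 to 58.6 CPM in females and from 36.2 to 27 CPM in males.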

How the results depend on the processing

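Of 7328 member values recomputed under alternatives and with 1 library left out (84 fits), 7160 kept their side of the threshold, 97 lost and 70 gained a call. A called value turned its sign in 1 case, Tgfa in the difference of the PT and Total responses at day 10 (-0.118 on log2(RPKM + 1)). The 7160 include 259 sign changes of values past no threshold, so not all of them kept their direction. A filter of 5 CPM in 3 libraries, which removes the scarce members, left 2 members called in PT at day 5 and day 10, 3 in Total at day 5 and 2 at day 10, 0 between the sexes in PT at day 5 and day 10 and in Total at day 10, and 1 between the sexes in Total at day 5. On log2(RPKM + 1), which shrinks low values, the counts were 2 in PT at day 10, 3 and 1 in Total at day 5 and day 10, 1, 2 and 1 for PT against Total in contralateral, day 5 and day 10 kidneys, 1 for the response difference at day 5 and 0 between the sexes in Total at day 10. On log2(RPKM + 0.1) they were 2 for PT against Total at day 10 and 1 between contralateral sexes in PT. DESeq2 called 1 in Total between the days, 0 for the response difference at day 10, 1 between contralateral sexes in PT, 2 and 1 for the sex difference of the response in Total at day 5 and day 10, and 1 between the sexes in Total at day 5. limma-voom called 0 for the response difference at day 10, 1 between contralateral sexes in PT, and 0 between the sexes in PT at day 5 and in Total at day 10. With only the groups compared, the counts were 1 and 0 for the response difference at day 5 and day 10, 1 between the sexes in contralateral and in day 5 Total, and 0 in day 10 Total. With Lars2 as a covariate they were 1 for the response difference at day 5, 1 between contralateral sexes in PT and in Total, and 0 in Total at day 10. RLE factors, library size only and no filter each gave 0 for the response difference at day 10, library size only gave 1 between contralateral sexes in PT, no filter gave 1 between the sexes in Total at day 5, and the libraries low in Lars2 gave 0 between the sexes in PT at day 10. The causes of these shifts were not tested. With the replicate number as a block the response difference gave 1 (Tgfa, adjusted p = 0.049) at day 5 and 0 (Tgfa, adjusted p = 0.0827) at day 10, Ereg could not be fitted, and no other member call changed. With 1 library left out, the count ranged from 3 to 5 in Total at day 5 (3 without contralateral male replicate 3 or day 5 male replicate 1), from 0 to 2 between contralateral sexes in PT (2 without male replicate 2, 1 without day 10 male replicate 2 or 3), and from 0 to 1 for the response difference at both days, the sex difference of the response in Total at day 10 (1 without day 10 male replicate 1) and the sexes within day 5 and day 10 in both fractions. Over all genes DESeq2 and edgeR calls differed by more than 1.5 times between the days in PT (192 against 66) and Total (158 against 66), for the sex difference of the response in PT (191 against 75 at day 5, 100 against 31 at day 10) and Total (304 against 99, 79 against 31), and between the sexes in PT (241 against 127 at day 5, 521 against 332 at day 10) and Total (261 against 72, 298 against 190), and library size only gave 40 for the PT day 5 sex difference. The share called higher for the response difference at day 10 was 81.3% in edgeR and 68.6% in DESeq2. For the sex difference of the response it was 58.7% and 46.6% in PT at day 5, 77.4% and 56% in PT at day 10, 57.6% and 46.4% in Total at day 5 (38.8% with library size only) and 71% and 45.6% in Total at day 10 (45.2%). Between the sexes library size only moved it from 32.3% to 22% in PT and from 34.7% to 22.8% in Total at day 5, and from 42.2% to 52.5% in contralateral Total. Depth limits Ereg in PT and in contralateral Total (0 or 1 count a condition) and contralateral Areg (5 and 10 counts).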
